A study of Homo sapiens with 6 samples.

Results

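The genes described here are the amino acid response that the transcription factor ATF4 commands, followed in Hs578T breast cancer cells after induction of HOXA5. The list holds 33 gene symbols, chosen by what the genes are known to do: 5 regulators of the response, 4 genes of cysteine and glutathione handling, 7 genes of amino acid synthesis and transport, and 17 cytosolic aminoacyl-tRNA synthetases. Every probe set whose only symbol is on the list was taken, 43 in all, and 31 of the 33 genes had at least 1. Probe sets with several symbols were left out, 5 of them naming a member: MARS1 (3 probe sets) and QARS1 (1) stand only on such probe sets, each beside a microRNA gene, and were not analysed here, and 1 names PHGDH with MZT2A and MZT2B. All 43 probe sets passed the filter on dim values, and 42 of them lay above the intensity floor on all 6 arrays. For 22 genes there was 1 probe set. The other 9 genes had several, and the probe set with the brightest mean signal stands for the gene below. The members are compared with the 10444 genes tested on these arrays.

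ATF4 is the effector of the integrated stress response. When amino acids are short, or when another stress activates one of the kinases of the initiation factor eIF2, translation in general slows while the ATF4 message is translated more. ATF4 then pairs with C/EBP proteins on composite elements called CARE (C/EBP-ATF response element, also known as the amino acid response element) in the genes for amino acid synthesis, amino acid transport, glutathione metabolism and tRNA charging. In breast cancer cells the same genes supply serine, asparagine and cysteine for growth.

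Hs578T is an established human breast cancer line of mesenchymal character, here carrying an inducible HOXA5 gene in all groups. HOXA5 belongs to the homeobox transcription factors, whose targets the series looks for. It is named by 0 probe sets of the table used, so its own level was not analysed here. RNA was taken at 0 h (uninduced cells), at 6 h and at 9 h of induction in each of 2 experiments, giving 3 groups of 2 arrays. Per the labels, the experiments are 2 RNA batches, and cells were put on a 10 cm dish 24 h ahead of induction. The sources used here give neither the inducing agent nor a dose. The 6 h array titled experiment 2 carries a lot line of experiment 1, and the title was followed. With 0 uninduced arrays at 6 h or 9 h, induction and time in culture cannot be told apart. The p-values measure the spread between these 6 arrays. Each array measures a whole dish, so a change in all cells and a larger change in some of them cannot be told apart.

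The median deposited intensity lay between 18.7 and 95.7 units over the 6 arrays, so the values were put on a common scale by quantile normalisation before any comparison, and levels below are normalised intensities. Over all tested genes the median log2 change in values not so scaled was -1.37 at 6 h and -0.57 at 9 h, both against 0 h, so every change given here is relative to the rest of the array. All 8 mesenchymal markers, such as vimentin and fibronectin, were above the floor on all 6 arrays. Of 8 luminal epithelial markers EPCAM and KRT19 were above it on at most 1 array, and 5 were above it on all 6, among them KRT18. Of the leukocyte markers 4 had a probe set and LYZ and CD14 were above the floor on at most 1 array, as were CDH5 and TEK of the 5 endothelial markers. The leukocyte marker CD3E and the endothelial marker PECAM1 were above it on all 6, at no more than 89.7 and 46.3 units. PTPRC was above it on 4 arrays, and VWF and KDR were on 2 each. Lying above the floor thus does not by itself identify a cell type.

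The promoters were read first, because the CARE element is the sequence through which ATF4 is known to act. RefSeq promoter windows of the build GRCh38.p14, which run from 250 bases before to 50 bases after each gene start, were searched for 27 of the 33 genes, and SLC7A11, PSPH, SHMT2, LARS1, VARS1 and YARS1 were not searched. The search was made on both strands for the core of the element, TGATGNAA, which reads TTNCATCA on the other strand. It stood in a window of 11 of the 27 members (40.7%), against 279 of 8459 tested genes (3.30%) and 1217 of all 27305 genes with a window (4.46%). With C at the open base, TGATGCAA, 8 members matched, against 0.887% of tested genes. Another ATF family motif, the palindrome TGACGTCA, was in a window of 0 members and of 3.72% of tested genes. The sites are shown with the 11 bases on each side (fewer where the window ends), 5′ to 3′ on the strand of the gene, with the match in capitals.
CHAC1 (chr15:40953251-40953280, plus strand): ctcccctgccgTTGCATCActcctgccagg
CEBPG (chr19:33374060-33374089, plus strand): cgcgcggcgtcTGATGCAAcctgccggcaa
ASNS (chr7:97872458-97872487, minus strand): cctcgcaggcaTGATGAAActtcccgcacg
SLC3A2 (chr11:62881725-62881748, plus strand): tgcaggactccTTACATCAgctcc
CARS1 (chr11:3057407-3057436, minus strand): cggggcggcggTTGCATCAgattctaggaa
AARS1 (chr16:70289675-70289704, minus strand): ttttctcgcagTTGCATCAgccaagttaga
GARS1 (chr7:30594834-30594863, plus strand): ttacgcggcgaTTTCATCAtgctccgagcc
IARS1 (chr9:92293692-92293721, minus strand): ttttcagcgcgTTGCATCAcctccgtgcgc
MARS1 (chr12:57488053-57488082, plus strand): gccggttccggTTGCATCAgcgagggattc
NARS1 (chr18:57621804-57621833, minus strand): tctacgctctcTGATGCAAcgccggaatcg
TARS1 (chr5:33440956-33440985, plus strand): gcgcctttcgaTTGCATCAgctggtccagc
Of the 11 sites, 7 belong to tRNA synthetases. The matches of CARS1, IARS1, MARS1, NARS1 and TARS1 began within 14 bases of the gene start, on either side of it, while that of ASNS began 68 bases and that of CHAC1 209 bases before it. That of ASNS is the site known as nutrient-sensing response element 1. A match describes the letters only, and a window without one says nothing of sites elsewhere in a gene. The members were listed for their known part in this response, so their higher share may come from that choice. It says nothing of these arrays. The 27 include MARS1 and QARS1, which were not analysed on the arrays.

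The upstream part of 3 of these windows, those of CHAC1, CEBPG and ASNS, is given in full. Each has 250 bases up to the gene start, again with the match in capitals.
CHAC1 (chr15:40953221-40953470, plus strand): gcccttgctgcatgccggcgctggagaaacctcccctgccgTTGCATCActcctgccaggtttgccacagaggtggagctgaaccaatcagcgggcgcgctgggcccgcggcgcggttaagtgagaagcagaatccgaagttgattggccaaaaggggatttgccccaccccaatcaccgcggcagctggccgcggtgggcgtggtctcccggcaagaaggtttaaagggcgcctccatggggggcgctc
CEBPG (chr19:33373863-33374112, plus strand): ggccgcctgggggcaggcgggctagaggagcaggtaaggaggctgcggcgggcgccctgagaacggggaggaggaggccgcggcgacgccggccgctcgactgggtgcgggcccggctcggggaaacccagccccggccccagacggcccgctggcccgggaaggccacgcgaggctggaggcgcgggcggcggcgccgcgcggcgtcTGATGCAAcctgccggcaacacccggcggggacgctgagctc
ASNS (chr7:97872409-97872658, minus strand): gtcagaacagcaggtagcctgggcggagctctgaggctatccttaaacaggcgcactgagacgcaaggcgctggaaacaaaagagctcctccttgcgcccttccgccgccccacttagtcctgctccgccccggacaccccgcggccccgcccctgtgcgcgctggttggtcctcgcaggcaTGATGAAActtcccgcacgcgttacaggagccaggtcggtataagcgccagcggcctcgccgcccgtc

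At 9 h of induction most of the response stood above its level at 0 h, and cysteine and glutathione genes had the highest group median. The median log2 change of the 31 members was 0.66, against -0.02 over all tested genes (0.46 in experiment 1 and 0.99 in experiment 2). Both 9 h arrays lay above both 0 h arrays for 21 of the 31 members (67.7%), where the same held for 19.2% of all tested genes. For 0 members did both 9 h arrays lie below both 0 h arrays, against 19.4% of all genes. Within the experiments 22 members were higher at 9 h in both, where 28.0% of all genes were, and 2 were lower in both, where 29.5% were. By limma without the experiment 0 members passed (0% of all genes), and 10 had an unadjusted p under 0.05, as 826 of all 10444 genes had. With the experiment as a term, which pairs the arrays of 1 experiment, 3 members passed, against 0.412% of all genes: CEBPG, CHAC1 and CARS1, all of them higher at 9 h. Lower at 9 h by that test were 0 members and 0.0383% of all genes. These 3 calls rest on few degrees of freedom: with any 1 of the 6 arrays left out of the paired fit 0 members passed. A block by the lot line, which puts the 6 h array titled experiment 2 into experiment 1, called 0 members (lowest limma adjusted p of a member 0.557). On unscaled values the paired fit called 0 members too, and the median change of the members was -0.0040, where that of all genes was -0.57.

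**Figure D1:**
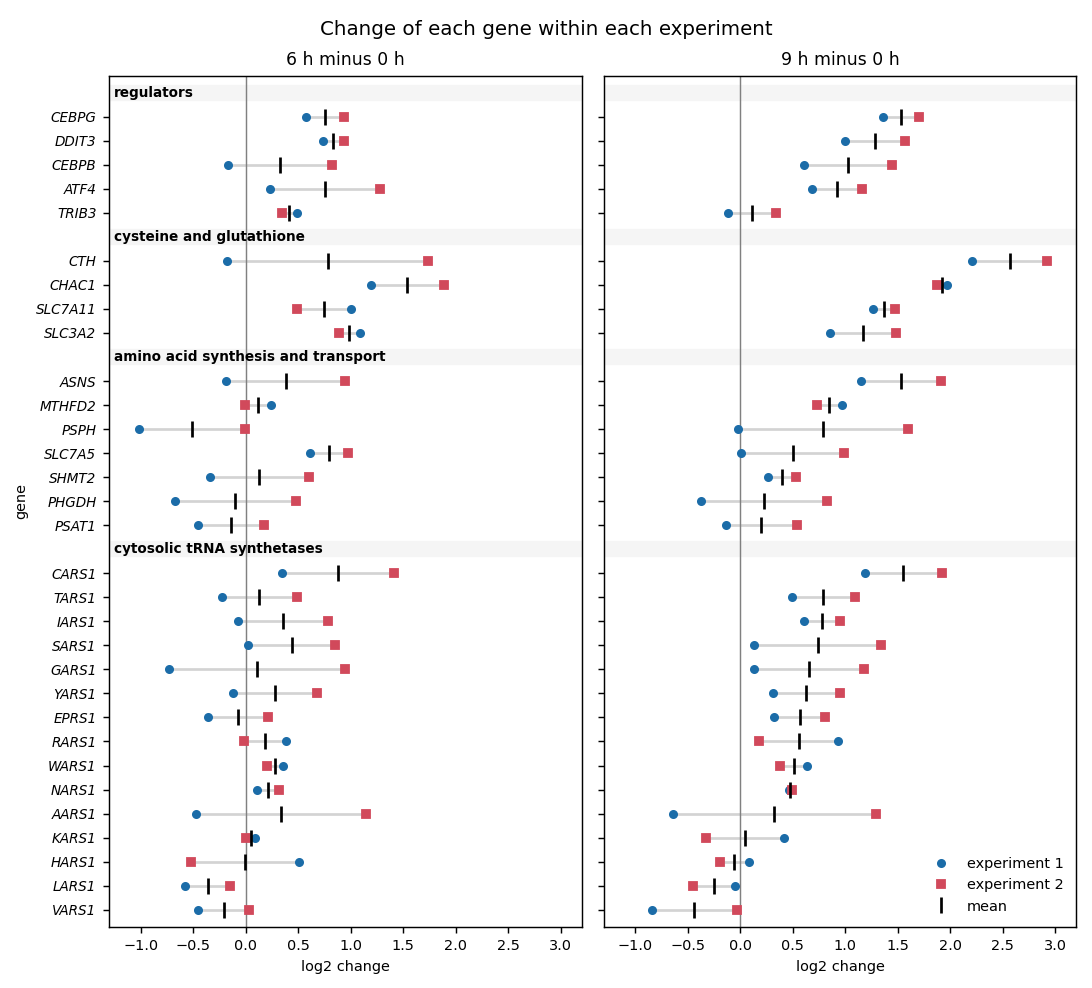
Log2 change within experiment 1 (circles), within experiment 2 (squares) and on average (black marks) for the 31 genes, by role and ordered by the average at 9 h; the left panel sets 6 h and the right panel 9 h against 0 h. At 9 h the changes of all 4 cysteine and glutathione genes lie right of 0 in both experiments, while VARS1 and LARS1 lie left of it in both.

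Among the regulators, CEBPG, the C/EBP family member that pairs with ATF4 on CARE elements, rose at 9 h. It read 283 and 313 units before induction in experiments 1 and 2, 422 and 599 after 6 h, and 724 and 1020 after 9 h. Each later time lay above the earlier one in both experiments, and no arrays of different times overlapped. The change at 9 h was 2.89-fold, or 1.53 ± 0.30 on the log2 scale (n = 2 arrays per group). Each ± value here and below is the SE of the limma fit without the experiment. The limma adjusted p of CEBPG was 0.543 in that fit and 0.0274 with the experiment as a term. Its promoter holds the CARE core 42 bases before the gene start.

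ATF4 itself, which is regulated mainly through translation of its message, read 1295 and 1576 units before induction, 1518 and 3823 after 6 h, and 2075 and 3510 after 9 h. Both 9 h arrays lay above both 0 h arrays, and the log2 change of 0.92 ± 0.45 at 9 h did not pass (limma adjusted p = 0.709, or 0.152 with the experiment as a term). It was 0.54 without the 9 h array of experiment 2. DDIT3, which encodes the stress factor CHOP, a target of ATF4, read 160 and 280 units before induction, 266 and 534 after 6 h, and 319 and 833 after 9 h. It was higher at each later time within both experiments, with a log2 change of 1.28 ± 0.55 at 9 h (adjusted p = 0.676, or 0.0652 with the experiment as a term, by limma). That change was 0.59 without the same array. CEBPB, a C/EBP factor with activating and repressing isoforms, read 1036 and 775 units before induction, 921 and 1367 after 6 h, and 1579 and 2113 after 9 h, with a log2 change of 1.03 ± 0.30 at 9 h that did not pass (0.120 with the experiment as a term, by limma). TRIB3, a pseudokinase that ATF4 switches on and that restrains it in turn, stood apart from the other regulators and read 80.7 and 74.1 units before induction, 113 and 94.0 after 6 h, and 74.5 and 93.6 after 9 h. Its 9 h arrays overlapped those at 0 h, with a log2 change of 0.11 ± 0.38.

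**Figure D2:**
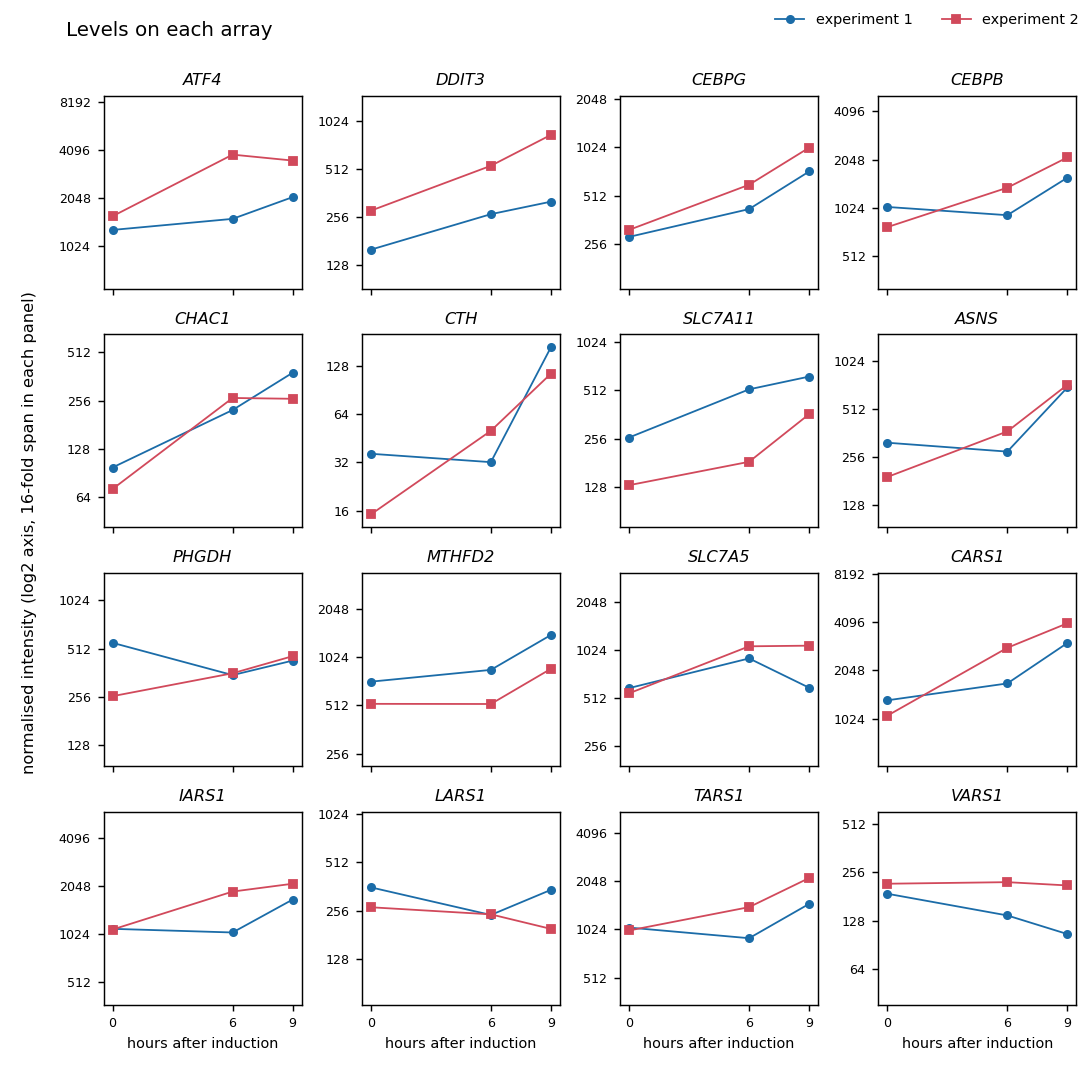
Normalised intensity (log2 axis) on each array against hours after induction for the 16 genes described in full, with experiment 1 as circles and experiment 2 as squares. CEBPG, DDIT3 and CARS1 are higher at each later time in both experiments, whereas the PHGDH lines start apart at 557 and 259 units and meet at 6 h.

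The 4 genes of cysteine and glutathione handling had the highest group median at 9 h, 1.64, and all 4 were higher than at 0 h in both experiments. CHAC1, a gamma-glutamylcyclotransferase that degrades glutathione and a well known ATF4 target, rose at 9 h. It read 97.9 and 71.8 units before induction, 224 and 266 after 6 h, and 382 and 263 after 9 h. Both 6 h arrays already lay above both 0 h arrays, while the 6 h and 9 h arrays overlapped. The log2 change was 1.92 ± 0.34 at 9 h, with 1.97 and 1.87 in the experiments and a limma adjusted p = 0.0384 with the experiment as a term (0.543 without). Its CARE core is the one furthest from the gene start among the sites shown.

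CTH, the cystathionine gamma-lyase that makes cysteine, had the largest mean change of all 31 members. It read 36.2 and 15.1 units before induction, 32.1 and 50.4 after 6 h, and 167 and 115 after 9 h, so that both 9 h arrays lay above all others. The change at 9 h was 5.91-fold, or 2.56 ± 0.57 on the log2 scale, and did not pass (limma adjusted p = 0.543, or 0.0867 with the experiment as a term). These are dim signals, with the lowest array near the floor of 12.7 units. The other CTH probe set read 97.4 and 72.7 units at 9 h, against 30.1 and 31.6 at 0 h, a log2 change of 1.45.

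Cystine enters the cell through a transporter made of SLC7A11 and the heavy chain SLC3A2. SLC7A11 read 260 and 131 units before induction, 520 and 184 after 6 h, and 625 and 364 after 9 h. Its 9 h arrays lay above both 0 h arrays, with a log2 change of 1.37 ± 0.57 (0.0652 with the experiment as a term, by limma), which was 0.87 without the 0 h array of experiment 2. Of its other probe sets 1 had a change of 2.01 and passed with the experiment as a term (limma adjusted p = 0.0298), and 1 had 0.47 and did not. SLC3A2, which also serves SLC7A5, read 328 and 625 units before induction, 698 and 1155 after 6 h, and 595 and 1746 after 9 h, with a log2 change of 1.17 ± 0.56 at 9 h. Its groups overlapped at 9 h, since the 9 h array of experiment 1 lay below the 0 h array of experiment 2, although within each experiment 9 h was the higher.

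The genes of amino acid synthesis and transport split into ASNS, MTHFD2 and the rest. ASNS, asparagine synthetase, a classical target of the amino acid response, read 314 and 192 units before induction, 276 and 370 after 6 h, and 695 and 722 after 9 h. Both 9 h arrays stood above all 4 others, and the change against 0 h was 2.89-fold, or 1.53 ± 0.32 on the log2 scale (limma adjusted p = 0.543, or 0.0652 with the experiment as a term). MTHFD2, a mitochondrial enzyme of one-carbon metabolism, read 719 and 523 units before induction, 852 and 522 after 6 h, and 1408 and 866 after 9 h, a log2 change of 0.85 ± 0.36 that was 0.50 without the 9 h array of experiment 1. In both experiments it stood close to its 0 h level at 6 h and above it at 9 h. SLC7A5, the transporter of large neutral amino acids, read 590 and 547 units before induction, 905 and 1076 after 6 h, and 593 and 1086 after 9 h. Both of its 6 h arrays lay above both 0 h arrays, and at 9 h the experiments differed, with 0.01 and 0.99 on the log2 scale in experiments 1 and 2.

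The enzymes that make serine and glycine had mean log2 changes from 0.20 (PSAT1) to 0.79 (PSPH). PHGDH, which draws 3-phosphoglycerate into serine synthesis, read 557 and 259 units before induction, 350 and 360 after 6 h, and 431 and 460 after 9 h, so the 9 h arrays lay between those of 0 h. Its log2 change at 9 h was 0.23 ± 0.38, with -0.37 in experiment 1 and 0.83 in experiment 2. PSAT1, the next enzyme of the pathway, had 0.20 with the same split (-0.14 and 0.54). PSPH, the last enzyme, had 0.79, of which -0.03 in experiment 1 and 1.60 in experiment 2. The other PSPH probe set had 1.22 and was higher at 9 h in both experiments. It read 82.9 and 55.0 units at 0 h, and 190 and 131 at 9 h. SHMT2, which turns serine into glycine in mitochondria, had 0.39 (0.26 and 0.53), and its 3 probe sets had changes of both signs. The median of these 4 genes was 0.31, and 0 of them passed.

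Of the 15 cytosolic tRNA synthetases measured, which attach amino acids to their tRNAs, 10 were higher at 9 h in both experiments, 2 lower in both, and 10 had both 9 h arrays above both 0 h arrays. Over all tested genes these shares were 28.0%, 29.5% and 19.2%. Their median log2 change was 0.56. CARS1, the cysteinyl-tRNA synthetase, rose at 9 h and stood apart from the rest of the family. It read 1330 and 1066 units before induction, 1696 and 2831 after 6 h, and 3033 and 4026 after 9 h, with no overlap between any of the times. The change at 9 h was 2.93-fold, or 1.55 ± 0.31 on the log2 scale (limma adjusted p = 0.0409 with the experiment as a term, 0.543 without), and the other CARS1 probe set had 1.45. Its CARE core begins 2 bases before the gene start.

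TARS1, the threonyl-tRNA synthetase, read 1050 and 1007 units before induction, 901 and 1409 after 6 h, and 1476 and 2141 after 9 h, a log2 change of 0.79 ± 0.30 that was 0.52 without the 9 h array of experiment 2. IARS1, for isoleucine, read 1104 and 1092 units before induction, 1047 and 1885 after 6 h, and 1681 and 2110 after 9 h, a change of 0.78 ± 0.31. For both genes the 9 h arrays lay above both 0 h arrays, and neither change passed. The synthetases for serine, glycine, tyrosine, glutamate and proline, arginine, tryptophan and asparagine (SARS1, GARS1, YARS1, EPRS1, RARS1, WARS1 and NARS1) had log2 changes from 0.74 (SARS1) to 0.48 (NARS1), again with both 9 h arrays above both 0 h arrays. The other WARS1 probe set had 0.22, and the others of EPRS1 had 0.40 and 0.11. For those with 0.22 and 0.11 the 9 h and 0 h arrays overlapped. NARS1 had 0.46 and 0.49 in the experiments, close to each other, while GARS1 had 0.14 and 1.18.

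The remaining synthetases, apart from AARS1, had mean changes near or below 0 at 9 h. VARS1, for valine, read 188 and 217 units before induction, 138 and 222 after 6 h, and 105 and 212 after 9 h, a log2 change of -0.44 ± 0.44, of which -0.84 in experiment 1 and -0.04 in experiment 2. The other VARS1 probe set had -1.73, with the 9 h array of experiment 1 at the floor and 139 units on that of experiment 2. LARS1, for leucine, read 358 and 269 units before induction, 241 and 243 after 6 h, and 345 and 197 after 9 h, a change of -0.25 ± 0.35. HARS1, for histidine, had -0.06, and KARS1, for lysine, 0.04, its other probe set having -0.22. AARS1, for alanine, carries the CARE core in its promoter and had 0.32, but with opposite signs in the experiments: it read 590 units at 9 h in experiment 1, against 920 at 0 h, and 1742 at 9 h in experiment 2, against 714 at 0 h.

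**Figure D3:**
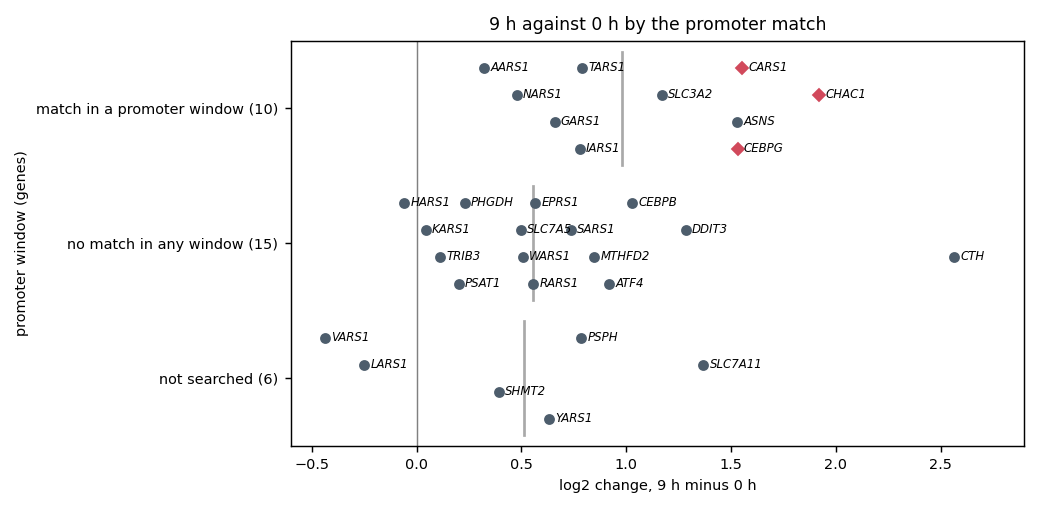
Log2 change at 9 h against 0 h for each gene, with the genes whose promoter window holds the CARE core in the top row, those whose windows do not in the middle row, and those not searched in the bottom row. Diamonds mark the 3 genes that passed with the experiment as a term, all in the top row, and vertical grey bars are medians, 0.98, 0.56 and 0.51 from top to bottom.

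Set side by side, the 10 measured members with a CARE core in their window had a median of 0.98 on the log2 scale at 9 h, from 0.32 (AARS1) to 1.92 (CHAC1), and 8 of the 10 had both 9 h arrays above both 0 h arrays. The 15 members whose windows lack it had a median of 0.56, from -0.06 (HARS1) to 2.56 (CTH), and 10 of the 15 had both 9 h arrays above. The share over all tested genes was 19.2%. All 3 members that passed with the experiment as a term hold the core. Added after the data were seen, that fit with trimmed mean scaling or log2(value + 16) called more members. Among these were CTH and DDIT3, whose windows lack the core, and SLC7A11, which was not searched. No test was made of the difference, and CTH, with the largest change, has no match in its window. At 6 h the medians of the same groups were 0.37 and 0.28.

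At 6 h the response was less complete. The 6 h arrays were also the dimmest as deposited, with median intensities of 18.7 units in experiment 1 and 39 in experiment 2. The part of this in the 6 h values was not tested. The median log2 change of the 31 members against 0 h was 0.28, against 0.01 over all tested genes, with 0.03 in experiment 1 and 0.60 in experiment 2. Both 6 h arrays lay above both 0 h arrays for 8 members (25.8%), where 16.8% of all genes did so: TRIB3, CEBPG, CHAC1, SLC3A2, SLC7A5, CARS1, NARS1 and SARS1. For 1 member, LARS1, they lay below both, where 15.3% of all genes did. Higher in both experiments were 13 members (41.9%), where 26.9% of all genes were, and lower in both were 2, LARS1 and PSPH, where 25% were. By limma 0 members passed with or without the experiment as a term (0% of all genes in either fit), with 4 members and 441 of all genes at an unadjusted p under 0.05 in the fit without it. CHAC1 had the largest change, 1.54 ± 0.34, followed by SLC3A2 with 0.99 ± 0.56 and CARS1 with 0.88 ± 0.31. The 6 h and 9 h comparisons share their 0 h arrays.

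The 9 h arrays were also set against the 6 h arrays, a change taken between the arrays of these times only. The 0 h arrays still enter the normalisation and the estimate of the spread. The median log2 change from 9 h over 6 h was 0.35, against -0.01 over all genes (0.45 and 0.32 in the experiments). It was 0.33 over the 9 mitochondrial tRNA synthetases tested, which are not members. Both 9 h arrays lay above both 6 h arrays for 13 members, where 14.8% of all genes did so, and below both for 1, TRIB3, where 15.4% did. Higher in both experiments were 20 members, where 27.4% of all genes were, and lower in both were 2, where 27.2% were. By limma 0 members passed in either fit (0% of all genes), with 6 members and 526 of all genes at an unadjusted p under 0.05 in the fit without the experiment. CTH had 1.78 ± 0.57, PSPH 1.29 ± 0.52 and ASNS 1.15 ± 0.32, all with no overlap of the 9 h and 6 h arrays. SLC7A5 had -0.30 ± 0.32, SLC3A2 0.18 ± 0.56 and ATF4 0.16 ± 0.45, each with changes of opposite sign in the experiments.

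The experiments differed in how far members moved. At 9 h against 0 h the change was larger in experiment 2 than in experiment 1 for ATF4 (1.16 and 0.68), AARS1 (1.29 and -0.64) and SARS1 (1.34 and 0.13), and larger in experiment 1 for RARS1 (0.18 in experiment 2 and 0.93 in experiment 1). DDIT3 and SLC3A2 were also higher at each time in experiment 2 than in experiment 1, whereas SLC7A11 was lower at each time. The 3'/5' ratio of ACTB, which reflects RNA quality, was 1.82 on the 9 h array of experiment 1, against 0.918 to 1.09 on the other 5 arrays, and its part in these results was not tested.

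Genes of the same pathway outside the list gave a mixed picture at 9 h. Of 21 other ATF4 target genes tested, 3 rose with the experiment as a term, where 0.412% of all genes did, and 0 fell, and the median log2 change was 0.14. ATF3, a stress factor downstream of ATF4, had 2.45 ± 0.72 (limma adjusted p = 0.00890 with the experiment as a term, 0.591 without). PPP1R15A, which encodes GADD34 and brings the dephosphorylation of eIF2, had 1.65 ± 1.04 (0.0246), and the secreted glycoprotein STC2 1.65 ± 0.39 (0.0298). These 3 calls are no firmer than those of the members. With the block by the lot line, or in the paired fit on unscaled values, 0 of all probe sets passed. DDIT4, an inhibitor of mTORC1, had 1.83 ± 0.64 and did not pass, while the translation repressor EIF4EBP1 had -0.82 ± 0.33. In the fit without the experiment 0 of the 21 passed by limma, and 5 had an unadjusted p under 0.05, as 826 of all 10444 genes had.

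Among 9 other amino acid transporters tested, the median at 9 h was -0.10 on the log2 scale, and 0 were higher in both experiments, where 28.0% of all genes were. SLC7A1, for arginine and lysine, had -0.19 and SLC38A2, for small neutral amino acids, 0.19. The 7 other one-carbon and glycine enzymes had a median of -0.14, and the 14 eIF2 kinases, eIF2 subunits and related genes -0.05. Of these, EIF2S2, the beta subunit of eIF2, had 0.71 ± 0.24, and NFE2L2, a factor of the oxidative stress response, 0.83 ± 0.23, while EIF2AK3, the kinase that senses stress of the endoplasmic reticulum, had -0.02. EIF2AK4, another eIF2 kinase, had no probe set with it as the only symbol and was not analysed here. In the paired fit 0 genes of these 3 lists passed.

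The mitochondrial tRNA synthetases, a family parallel to the cytosolic one, had a median of 0.05 on the log2 scale over 9 tested genes at 9 h, against 0.56 over the 15 cytosolic members, and ranged from -0.33 (IARS2) to 0.38 (FARS2). Their median was -0.15 at 6 h against 0 h, where the cytosolic members had 0.19. At 9 h against 6 h the medians were close, 0.33 and 0.30. Of the 9 mitochondrial genes, 7 were higher at 9 h than at 6 h in both experiments, where 27.4% of all genes were. Of 6 other genes of cytosolic synthetase complexes, 2 were tested. FARSA, a subunit of the cytosolic phenylalanyl-tRNA synthetase and not a member, had -0.59 ± 0.52 at 9 h, lower in both experiments (-0.79 and -0.39). The lowest of the 15 cytosolic members had -0.44. AIMP1 had 0.08 ± 0.24. Chaperones, folding enzymes and related genes of the endoplasmic reticulum, which the other arms of the unfolded protein response control, had a median of -0.35 over 16 genes. Of these, 8 were lower in both experiments and 3 higher in both, where 29.5% and 28.0% of all genes were. HSPA5 had -0.80 ± 0.35 and SDF2L1 -1.32 ± 0.59, lower at 9 h in both experiments. The transcription factor XBP1, also on this list, had 0.59 ± 0.28 and was higher in both (0.80 and 0.37). In none of these lists did a gene pass, with or without the experiment as a term, and no test was made of the difference between the lists.

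**Figure D4:**
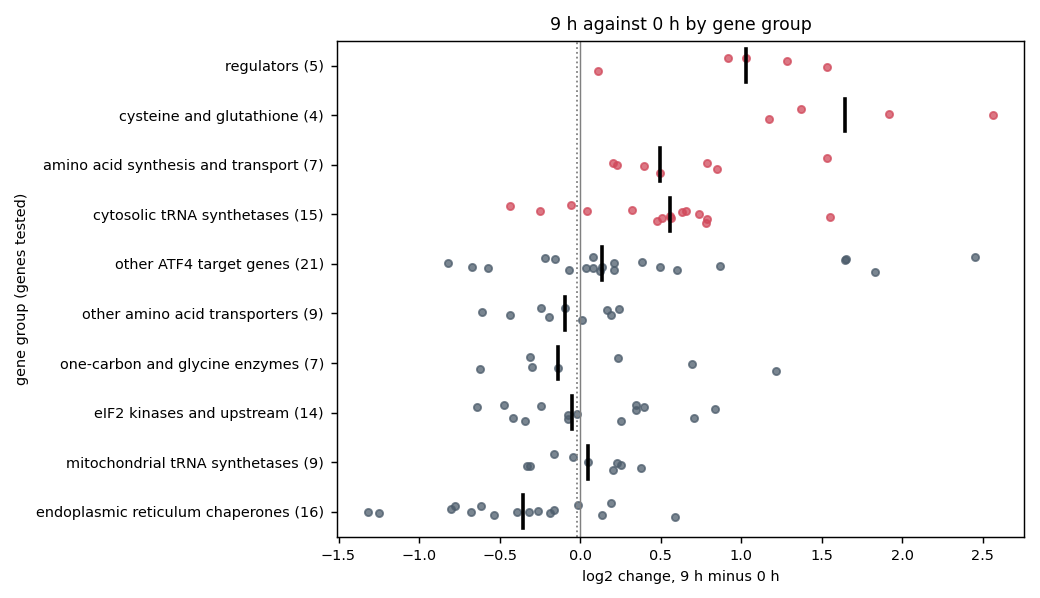
Log2 change at 9 h against 0 h for each gene, with the 4 member groups in red at the top and 6 other gene groups in grey below them; black bars are group medians and the dotted line is the median of all tested genes, -0.02. The cysteine and glutathione genes all lie above 1, while the endoplasmic reticulum chaperones have a median of -0.35.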

How the data were processed

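The data are 6 Affymetrix arrays, with 1 linear intensity per probe set and array as deposited by the authors. The software that made the intensities and any scaling are not given in the sources used here. Of 22283 probe sets, 19071 had 1 symbol in the platform table, 1043 several and 2169 none, only those with 1 were used, and 19059 symbols were updated through Entrez gene numbers. After quantile normalisation, a floor was set at 12.7 units, the 25th percentile, and log2 values were taken. Probe sets with at least 2 of 6 arrays above the floor (18360, without 68 controls) entered limma 3.58.1 in R 4.3.3 (lmFit, then eBayes with trend). Two-sided p-values were adjusted by Benjamini-Hochberg over all probe sets, separately by comparison, and called under 0.05. The fits were tested on simulated data. All 6 arrays entered the fit, with 3 residual degrees of freedom, or 2 with the experiment as a term. Arrays of 1 experiment share its number in their titles, and the number pairs them. Deviations of same-numbered arrays from their group means correlated at 0.247 to 0.391. Alternatives were other scalings, floors and filters, the experiment or lot line as a term, and each array left out. Those that join the experiment with another choice were added after the data were seen. Full values are given for members past the threshold in either fit, for the 3 with the largest mean change at 9 h in each role group among those of 1 direction in both experiments (for the synthetases also the 2 largest in the opposite direction), and for ATF4, DDIT3, CEBPB, ASNS and PHGDH. SLC3A2, TRIB3 and AARS1 were added after their values were seen. The members, the lists and the tests were chosen with earlier results of these data known. Precision is limited by 2 arrays per group. Promoter sequences are from RefSeq.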

Additional observations from a re-analysis of the deposited data

How the results depend on the processing

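Single-gene changes were recomputed for 16 members in each of 3 comparisons, 48 in all. They kept their direction and their side of the threshold under a trimmed mean scaling, a lower floor, no floor with log2(value + 16), no filter, a filter on all 6 arrays, no intensity trend and the mean of all probe sets. Pairing by experiment (replicate block) took the members called at 9 h against 0 h to 3, with log2 changes of 1.53 (CEBPG), 1.92 (CHAC1) and 1.55 (CARS1), against 0 without it, and changed no other call. Added after seeing the data, the replicate block with trimmed mean scaling called 7 members and with log2(value + 16) 8. A block by the lot line, planned, called 0. The replicate block called 0 with no scaling, with both 6 h arrays left out or with any 1 array left out (lowest adjusted p of a member 0.276 to 0.577 over single arrays, with 1 residual degree of freedom), where the fit has fewer samples. With no scaling between arrays, paired or not, the members' median was -1.32 at 6 h and -0.0040 at 9 h against 0 h, and 1.34 at 9 h against 6 h, where all genes shifted by -1.37, -0.57 and 0.78. With each array left out in turn it ran from 0.088 to 0.51, from 0.52 to 0.91 and from 0.25 to 0.62, and in the paired fit with an array left out it ran from 0.042 to 0.64 at 6 h against 0 h, reached 1.08 at 9 h against 0 h (without the 0 h array of experiment 1) and ran from 0.20 to 0.57 at 9 h against 6 h (0.55 without the 9 h array of experiment 1).

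With no scaling, changes at 6 h against 0 h reversed to -0.85 (ATF4), -0.77 (DDIT3), -0.87 (CEBPG), -1.32 (CEBPB), -0.45 (CTH), -0.76 (SLC7A11), -1.20 (ASNS), -1.48 (MTHFD2), -0.83 (SLC7A5), -0.68 (CARS1), -1.27 (IARS1) and -1.50 (TARS1). At 9 h against 0 h PHGDH reversed to -0.35 and SLC7A5 to -0.15, and at 9 h against 6 h SLC7A5 to 0.67 and VARS1 to 0.73. With the lot line as the block, 6 h against 0 h gave -0.17 for MTHFD2 and 0.095 for VARS1, and 9 h against 6 h gave -0.097 for ATF4 and -0.098 for DDIT3; the cause was not tested. Leaving out 1 array reversed PHGDH (-0.32 to 0.78), LARS1 (-0.66 to 0.15) and VARS1 (-0.94 to 0.068) at 9 h against 0 h. At 6 h against 0 h it reversed SLC7A11 (-0.0089 to 1.49), PHGDH (-0.65 to 0.46), MTHFD2 (-0.23 to 0.47), IARS1 (-0.068 to 0.78), TARS1 (-0.19 to 0.45) and VARS1 (-0.55 to 0.14). At 9 h against 6 h it reversed ATF4 (-0.50 to 0.83), DDIT3 (-0.24 to 1.14), SLC7A11 (-0.12 to 1.38), SLC7A5 (-0.73 to 0.14), IARS1 (-0.0016 to 0.85), LARS1 (-0.30 to 0.51) and VARS1 (-0.73 to 0.28). The changes of CEBPG, CHAC1 and CARS1 at 9 h against 0 h lay between 1.28 and 1.78, 1.65 and 2.19, and 1.35 and 1.76. The limit on all values is 2 arrays per group. Signals near the floor, as for CTH at 0 h, are the least certain.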
